A study of Mus musculus with 12 samples.

Results

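The collagen genes are taken here as the protein-coding mouse genes whose symbol names a chain of a numbered collagen, such as Col1a1 or Col18a1, after each gene identifier in the deposited count tables was given its symbol and type from GENCODE M21. They number 44 of the 21983 protein-coding genes and of the 54232 genes counted. RNA was measured by stranded RNA sequencing in 12 libraries of MMTV-NIC cells, mouse breast cancer cells in which a mammary tumour virus promoter drives an activated form of the receptor Neu (ErbB2). The 4 groups are AXL KO cells in hypoxia, AXL WT cells in hypoxia, AXL KO cells in normoxia and AXL WT cells in normoxia, with 3 libraries each. Hypoxia is 1% oxygen and normoxia 21% oxygen, and every group carries the MMTV-NIC background. AXL is a receptor tyrosine kinase, and the study asked which genes respond to its loss in hypoxia. How long the cells spent in hypoxia, whether AXL was removed in 1 clone or several, and whether replicates are separate cultures is not given in the labels. P-values therefore measure the spread between these libraries, which may be technical.

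Collagens are secreted or membrane proteins whose chains wind around each other into a rope-like helix, and a helix forms only from chains that fit together, so the RNAs of partner chains are usually read side by side. Fibrillar collagens build the tension-bearing fibres of connective tissue, FACIT collagens sit on the surface of those fibres, type IV chains build the sheet-like network of basement membranes, and type VI chains build beaded filaments close to cells. In breast tissue, fibrillar collagens come mostly from fibroblasts, and the type IV network underlies the epithelium.

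The 6 type IV chains are encoded by 3 pairs of genes that lie head to head, each pair starting in opposite directions from a shared stretch of DNA (coordinates in GRCm38, from the deposited files). Col4a1 lies at chr8:11198423-11312826 on the minus strand and Col4a2 at chr8:11312805-11449287 on the plus strand. The outermost 5′ ends of that pair lie 21 bases apart, with the gene bodies overlapping. Col4a3 (chr1:82586921-82722059) and Col4a4 (chr1:82448423-82586849) lie 72 bases apart, and Col4a5 (chrX:141475385-141689234) and Col4a6 (chrX:141165403-141474076) lie 1309 bases apart. The genes shown here are the X-linked pair and Col4a2, since the type IV pairs moved in opposite directions, and Col11a1 and Col1a2, which had the largest increases among fibrillar genes. The DNA before each start is taken from RefSeq (GRCm38.p6), 5′ to 3′ on the strand of the gene. Shown is the longest run without annotated exons in the 250 bases before the start, which can stop short of it. The Col1a2 run ends at chr6:4505492, ahead of its RefSeq start at chr6:4505618, and lies inside the longer GENCODE body of Col1a2. The Col4a2 stretch is the exception, as 30 bases around the letters CCAAT inside the gene body of Col4a1. Capitals mark the 4 short motifs counted after the sequences, on either strand.
Col4a5, chrX:141475169-141475384, plus strand: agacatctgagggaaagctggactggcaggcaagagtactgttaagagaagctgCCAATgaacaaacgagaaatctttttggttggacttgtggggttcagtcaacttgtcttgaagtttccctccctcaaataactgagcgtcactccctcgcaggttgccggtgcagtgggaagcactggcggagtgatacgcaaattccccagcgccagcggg
Col4a6, chrX:141474077-141474326, minus strand: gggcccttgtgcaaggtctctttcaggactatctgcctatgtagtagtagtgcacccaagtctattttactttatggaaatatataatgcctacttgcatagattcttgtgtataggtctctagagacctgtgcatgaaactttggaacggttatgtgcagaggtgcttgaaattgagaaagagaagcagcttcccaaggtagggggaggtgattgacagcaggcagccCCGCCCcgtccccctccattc
Col4a2, chr8:11312760-11312789, plus strand: cccgaggagctccCCAATttgttggcgctg
Col11a1, chr3:114030290-114030539, plus strand: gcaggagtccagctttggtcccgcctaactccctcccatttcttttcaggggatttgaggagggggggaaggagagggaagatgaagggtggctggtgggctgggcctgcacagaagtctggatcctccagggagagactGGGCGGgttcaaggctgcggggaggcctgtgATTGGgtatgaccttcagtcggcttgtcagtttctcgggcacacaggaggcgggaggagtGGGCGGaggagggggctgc
Col1a2, chr6:4505370-4505492, plus strand: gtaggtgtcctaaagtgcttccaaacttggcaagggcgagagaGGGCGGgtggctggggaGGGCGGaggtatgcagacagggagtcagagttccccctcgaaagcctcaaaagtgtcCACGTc
The letters ACGTG are the core of the element bound by hypoxia-inducible factors. Counted on both strands, they stood in 13.2% of the 38 collagen windows of 300 bases (35 genes matched), against 19.6% of all 32851 windows, and the 5 genes were Col11a2, Col1a2, Col4a4, Col5a1 and Col6a6. The CCAAT box stood in 34.2% of collagen windows against 37.4% of all. The letters TATAAA stood in 13.2% of collagen windows against 13.6% of all, and the GC box GGGCGG in 60.5% against 35.7%. Where 2 of these motifs overlapped, each was counted. Matches in a window but outside the stretch shown are not marked above. The Col1a2 window held 2 ACGTG and 2 CCAAT matches, and the Col4a2 window 3 matches of GGGCGG. A match describes the letters of the window and not a bound site.

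Each library held 45297267 to 58775422 counts in genes, and collagen genes took 0.34% to 0.354% of them in AXL KO hypoxia, 0.259% to 0.363% in AXL WT hypoxia, 0.4% to 0.473% in AXL KO normoxia and 0.255% to 0.274% in AXL WT normoxia. Axl itself had 86, 105 and 78 counts in AXL KO hypoxia libraries against 23077, 19395 and 28495 counts in AXL WT hypoxia libraries. Its normoxia counts were 164, 189 and 200 in AXL KO libraries and 51682, 47960 and 57291 in AXL WT libraries, so Axl was low in each library titled AXL KO. Groups were taken from the titles, since for 6 samples the genotype tag goes with oxygen and not with the title. The 3 AXL WT hypoxia libraries stood apart from each other. By a chi-square per degree of freedom between pairs, replicate 1 differed most, at 350 from replicate 2 and 199 from replicate 3. Replicates 2 and 3 gave 104. Of the 34 tested collagen genes, replicate 1 was the highest of the group in 18 and the lowest in 13. The same count was not made over all genes, so this one is descriptive. Fits that leave out replicates 2 and 3 of AXL WT hypoxia keep replicate 1 alone, and do not tell which library is unusual. Within that group the biological coefficient of variation reached 0.402, while it was 0.074 for AXL KO hypoxia, 0.09 for AXL KO normoxia and 0.058 for AXL WT normoxia. For 18 of the 21 collagen genes described one by one, the highest AXL WT hypoxia library was over 1.5 times the lowest, against 3 genes in AXL KO hypoxia, 1 in AXL KO normoxia and 3 in AXL WT normoxia.

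Levels are given as CPM, the count of a gene relative to the TMM-scaled library size, and between genes as CPM per kb of exon. The exon length is the total given for the gene in the deposited data and not that of a single transcript. The order of genes and the size of a chain ratio therefore depend on the annotation, while the change of a ratio between groups does not. A collagen gene was taken as read in a group at 10 or more counts in every library of that group. By this rule 33 of the 44 genes were read in at least 1 group and 22 in each of the 4. A further 8 had few counts, and 3 stayed at 3 counts or fewer in every library. The number read was 29 in AXL KO hypoxia, 26 in AXL WT hypoxia, 28 in AXL KO normoxia and 29 in AXL WT normoxia.

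By type, 9 of 11 fibrillar genes, all 6 basement membrane (type IV) genes, 8 of 9 FACIT genes and 4 of 6 beaded filament (type VI) genes were read in at least 1 group. Both multiplexin genes were read, as were 2 of 3 short-chain genes (types VIII and X), the anchoring fibril gene Col7a1, and Col17a1 alone among 4 transmembrane genes. Col26a1 and Col28a1, which fall in none of these types, were not. Col6a6, Col13a1 and Col26a1 were the genes at the floor, with totals of 4, 4 and 1 counts over the 12 libraries. Col3a1 and Col24a1 were the fibrillar genes with few counts. Col3a1, a partner of type I collagen in soft tissue, had a highest count of 89, and Col24a1 one of 57, both in AXL WT hypoxia replicate 2. A low-count filter over all genes kept 34 of the 44 collagen genes. It removed Col24a1, Col19a1, Col6a4, Col6a6, Col8a2, Col13a1, Col23a1, Col25a1, Col26a1 and Col28a1, of which none exceeded 57 counts in a library. A gene passed this filter if it was high in even 1 group, so the tested genes are not a sample of the 44.

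Per length, the leading collagen RNA differed between the groups. In AXL KO hypoxia it was Col6a1 at 168 ± 2.96 CPM per kb (SD, n = 3), followed by Col4a5 (102 ± 0.593), Col18a1 (76 ± 0.22), Col5a1 (68.4 ± 1.44) and Col4a6 (45.7 ± 0.862), none of whose SDs overlapped. In AXL WT hypoxia it was by mean Col8a1 at 93 ± 3.33 CPM per kb, followed by Col4a2 (76 ± 26.4), Col18a1 (62.1 ± 23.3), Col4a5 (58 ± 14.3) and Col4a1 (56 ± 14.2). The SD of Col8a1 overlapped that of Col4a2 alone, and the SDs of the others overlapped each other. In AXL WT hypoxia replicate 1 Col4a2 led, at 98.4 CPM per kb against 96.7 for Col8a1. In AXL KO normoxia the order was Col6a1 (137 ± 17.8), Col4a5 (113 ± 14.3), Col18a1 (93.9 ± 4.5), Col5a1 (62.9 ± 5.12) and Col4a6 (54.4 ± 7.01). The SDs of Col6a1 and Col4a5 overlapped, as did those of Col5a1 and Col4a6, but the order was the same in each library of that group. In AXL WT normoxia Col18a1 led at 113 ± 4.86 CPM per kb, ahead of Col4a2 (47.3 ± 1.04), and Col4a5, Col4a1, Col8a1 and Col4a6 lay within their spread at 23.7 to 25.7. As a share of the summed collagen level per length, fibrillar genes made up 16.8% to 17.5% in AXL KO hypoxia and 3.99% to 5.59% in AXL WT hypoxia, and 16.7% to 18.1% in AXL KO normoxia against 3.24% to 3.77% in AXL WT normoxia. Type VI genes made up 31.4% to 32.3% in AXL KO hypoxia and 7.1% to 9.15% in AXL WT hypoxia, and 24.9% to 26% in AXL KO normoxia against 4.23% to 4.31% in AXL WT normoxia. Type IV genes made up 25.2% to 26% in AXL KO hypoxia and 45.1% to 50.5% in AXL WT hypoxia, and 27.1% to 28.1% in AXL KO normoxia against 38.7% to 39.3% in AXL WT normoxia. The AXL KO and AXL WT ranges of these 3 classes did not overlap at either oxygen level. The summed collagen level itself was 581 to 591 CPM per kb in AXL KO hypoxia and 391 to 529 in AXL WT hypoxia libraries. In normoxia it was 564 to 687 in AXL KO and 306 to 325 in AXL WT libraries. A smaller share of a larger sum need not be a lower level, so the shares describe composition only. In RNA from a bulk culture, fewer cells of a kind and less RNA per cell cannot be told apart.

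**Figure D1:**
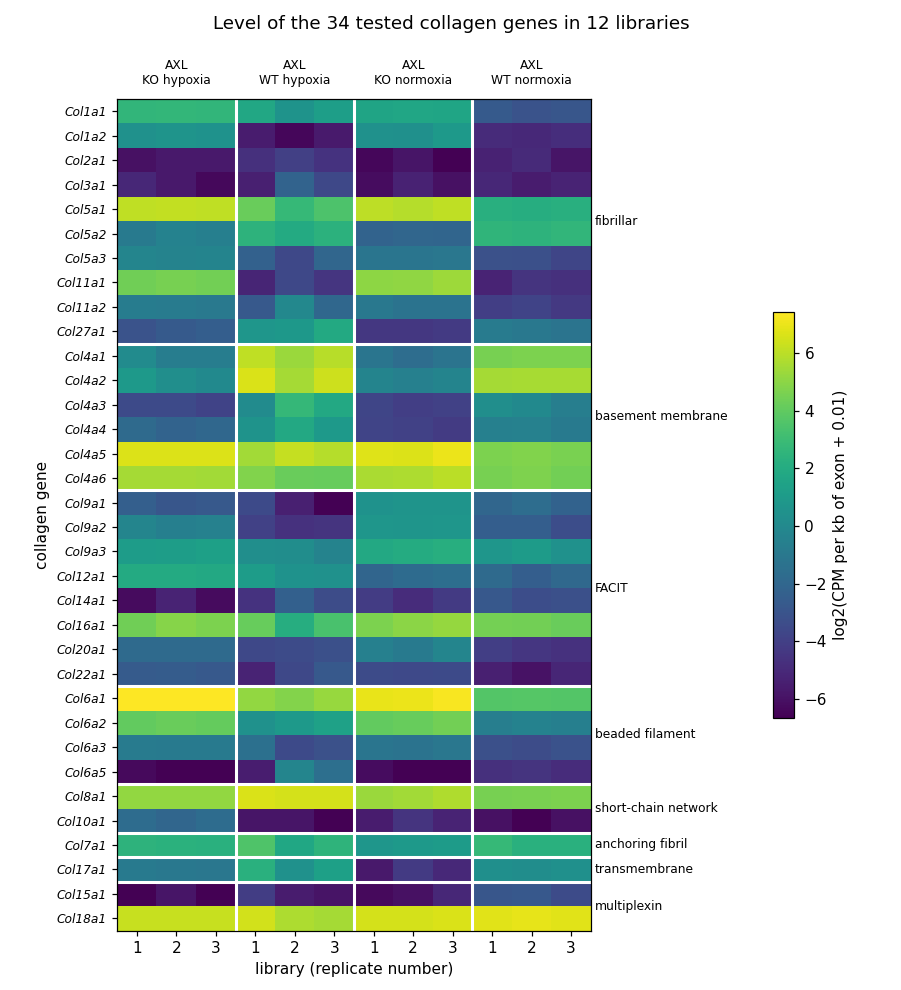
Level of the 34 tested collagen genes (rows, by type) in each of the 12 libraries (columns), as log2 of CPM per kb of exon plus 0.01. Col6a1, Col5a1, Col11a1, Col1a2 and Col6a2 are brighter in the 6 AXL KO libraries, Col4a1, Col4a2 and Col5a2 are darker there, and Col18a1 is bright in all 12.

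AXL KO cells differed from AXL WT cells in most collagen genes that could be tested, in both directions. In hypoxia 17 of the 34 tested genes were higher in AXL KO, 13 were lower and 4 were not called (edgeR's quasi-likelihood test with Benjamini-Hochberg adjustment over 16767 genes, called at adjusted p under 0.05). Of all genes tested, 63% were called in hypoxia (29.9% higher, 33% lower). In normoxia 18 were higher, 12 lower and 4 not called, where 59.7% of all genes were called (29.7% higher, 30% lower). The median log2 fold change of the 34 genes was 0.89 in hypoxia and 1.06 in normoxia, against -0.04 and -0.03 over all genes. The median size of the change, either way, was 2.39 in hypoxia and 3.26 in normoxia on the log2 scale, against 0.764 and 0.714 over all genes. With AXL WT hypoxia replicates 2 and 3 left out, which leaves that group 1 library assumed to vary like the others, 18 were higher and 13 lower in hypoxia of 35 tested. Adjusted p-values below come from the same test, in which the spread of a gene is estimated over all 4 groups. The wide spread of the AXL WT hypoxia libraries therefore enters comparisons without that group too. A gene can be left uncalled there, or lose its call easily, although its libraries do not overlap. The part of this in any call was not tested. A ± after a log2 fold change gives its standard error, and a ± after a level the SD of 3 libraries.

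**Figure D2:**
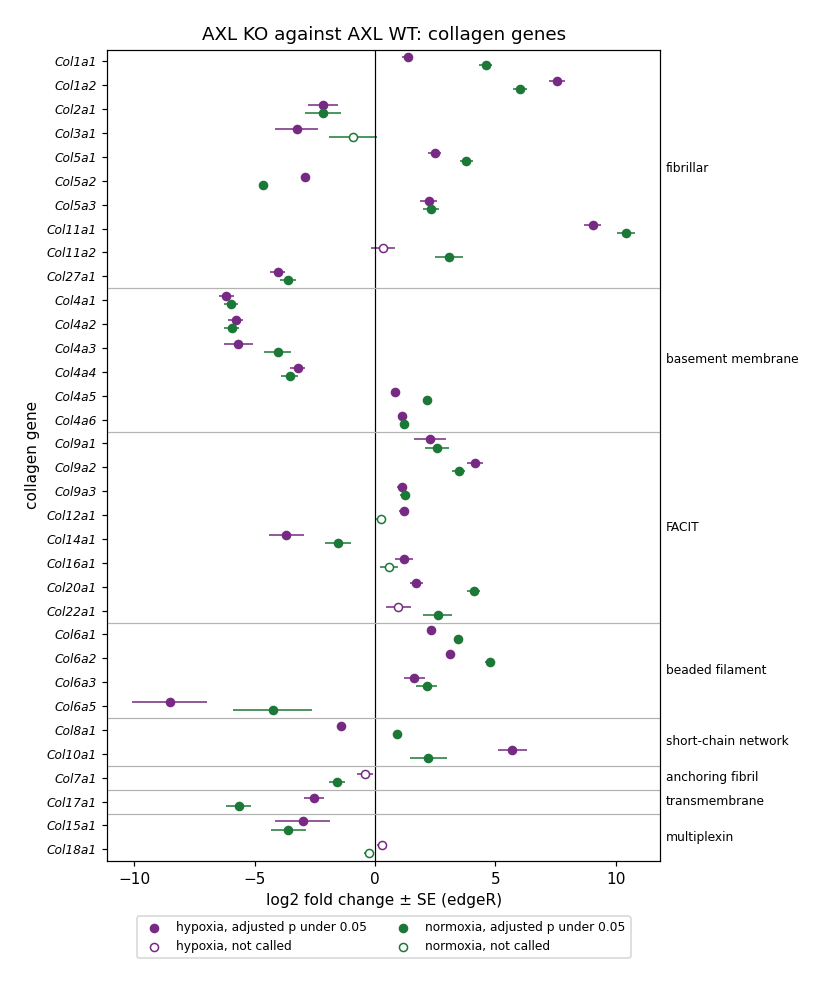
Log2 fold change of AXL KO against AXL WT for the 34 tested collagen genes, by type, in hypoxia and in normoxia, with bars for the standard error and open circles for genes not called. Col11a1 lies farthest to the right (9.04 in hypoxia, 10.41 in normoxia), and Col6a5, Col4a1 and Col4a2 far to the left.

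Among fibrillar genes, 5 of 10 tested were higher, 4 lower and 1 not called in AXL KO hypoxia cells against AXL WT hypoxia cells, and 6 were higher, 3 lower and 1 not called in normoxia. Over all genes 29.9% were higher and 33% lower in hypoxia, and 29.7% and 30% in normoxia. Type I collagen, the main fibril former of connective tissue, is made of the chains of Col1a1 (chr11:94936224-94953042) and Col1a2 (chr6:4504814-4541544). Col1a1 had 39.4, 42.3 and 40.2 CPM in AXL KO hypoxia libraries, against 22.7, 9.82 and 15.3 CPM in AXL WT hypoxia libraries. In normoxia, Col1a1 had 19.7, 20.7 and 20.3 CPM in AXL KO libraries, against 0.969, 0.726 and 0.821 CPM in AXL WT libraries. The AXL WT normoxia libraries were far below the other 9, and AXL KO lay above AXL WT at both oxygen levels without overlap. The log2 fold change of AXL KO against AXL WT was 1.35 ± 0.23 (adjusted p = 0.000348) in hypoxia and 4.59 ± 0.28 (adjusted p = 6.68e-08) in normoxia. Hypoxia against normoxia gave 1.01 ± 0.23 (adjusted p = 0.00274) in AXL KO cells and 4.25 ± 0.28 (adjusted p = 3.06e-07) in AXL WT cells.

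The hypoxia values of Col1a2 were 17.3, 19.5 and 18 CPM in AXL KO libraries and 0.133, 0.0234 and 0.125 CPM in AXL WT libraries. For Col1a2 the normoxia values were 16.7, 16.3 and 22.9 CPM in AXL KO libraries and 0.282, 0.261 and 0.314 CPM in AXL WT libraries. Its counts in AXL WT hypoxia libraries were 6, 1 and 6, so it stayed near the floor where Col1a1 had 1030, 419 and 737 counts. Col1a2 was higher in AXL KO by 7.55 ± 0.32 (adjusted p = 4.3e-09) in hypoxia and by 6.01 ± 0.28 (adjusted p = 7.19e-09) in normoxia on the log2 scale. Within AXL KO cells it was not called between oxygen levels (adjusted p = 0.925), and in AXL WT cells it fell in hypoxia, -1.56 ± 0.39 (adjusted p = 0.00472). That fall rests on 13 counts against 48, and without AXL WT hypoxia replicates 2 and 3 it was -1.08 (adjusted p = 0.139).

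Type V and type XI collagens start and limit the growth of fibrils. The type V chains Col5a1 and Col5a2 moved in opposite directions, while the type XI chain Col11a1 was higher in AXL KO at both oxygen levels and Col11a2 was called in normoxia alone. Col5a1 stood at 576, 595 and 572 CPM in the AXL KO hypoxia libraries and at 157, 58.2 and 96.3 CPM in the AXL WT hypoxia libraries. In normoxia Col5a1 stood at 543, 486 and 572 CPM in AXL KO and 39.2, 36.8 and 39.8 CPM in AXL WT libraries. Col5a1 (chr2:27886425-28039514) lay above AXL WT in each AXL KO library, by 2.48 ± 0.27 (adjusted p = 8.81e-06) in hypoxia and 3.79 ± 0.28 (adjusted p = 3.52e-07) in normoxia. Its partner chain Col5a2 (chr1:45374321-45503282) lay below. Col5a2 had 4.95, 7.08 and 6.38 CPM in AXL KO hypoxia libraries, against 53, 37.6 and 49.3 CPM in AXL WT hypoxia libraries. In normoxia, Col5a2 had 2.07, 2.29 and 2.2 CPM in AXL KO libraries, against 56.1, 51.2 and 58.6 CPM in AXL WT libraries. The log2 fold change of Col5a2 in AXL KO against AXL WT was -2.92 ± 0.17 (adjusted p = 4.45e-08) in hypoxia and -4.66 ± 0.18 (adjusted p = 1.9e-09) in normoxia, with no overlap. In hypoxia Col5a2 rose in AXL KO cells, 1.49 ± 0.17 (adjusted p = 1.84e-05), and was not called in AXL WT cells (adjusted p = 0.18). Col5a1 was not called in AXL KO cells (adjusted p = 0.701) and rose in AXL WT cells in hypoxia, 1.43 ± 0.26 (adjusted p = 0.000536).

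Col11a1 (chr3:114030540-114220718), a type XI chain known from cartilage and from tumour stroma, had the largest log2 fold change of any tested collagen gene at both oxygen levels. The hypoxia values of Col11a1 were 259, 296 and 278 CPM in AXL KO libraries and 0.221, 0.937 and 0.436 CPM in AXL WT libraries. For Col11a1 the normoxia values were 418, 429 and 524 CPM in AXL KO libraries and 0.211, 0.428 and 0.367 CPM in AXL WT libraries. In counts, AXL WT libraries had 10, 40 and 21 in hypoxia and 12, 23 and 21 in normoxia. AXL KO against AXL WT gave 9.04 ± 0.36 (adjusted p = 2.77e-09) in hypoxia and 10.41 ± 0.38 (adjusted p = 1.29e-09) in normoxia. In AXL KO cells Col11a1 fell in hypoxia, -0.72 ± 0.24 (adjusted p = 0.0231), and that call ended without any 1 of AXL KO hypoxia replicates 1, 2 and 3 or AXL KO normoxia replicate 3 (adjusted p = 0.0523 to 0.095). Its AXL KO hypoxia and AXL KO normoxia libraries did not overlap. Col27a1 stood at 1.46, 1.97 and 2.22 CPM in the AXL KO hypoxia libraries and at 22, 23.4 and 48.4 CPM in the AXL WT hypoxia libraries. In normoxia Col27a1 stood at 0.5, 0.5 and 0.555 CPM in AXL KO and 7.42, 6.42 and 5.36 CPM in AXL WT libraries. Col27a1 (chr4:63214004-63334991), a fibrillar chain without a known partner, was lower in AXL KO, -4.05 ± 0.32 (adjusted p = 7.15e-07) in hypoxia and -3.62 ± 0.33 (adjusted p = 2.02e-06) in normoxia, and higher in hypoxia in both genotypes, 1.86 ± 0.33 (adjusted p = 0.000565) in AXL KO and 2.29 ± 0.29 (adjusted p = 3.93e-05) in AXL WT cells.

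The other 4 tested fibrillar genes stayed below 10 CPM in each group mean. Col5a3, a further type V chain, averaged 5.41 ± 0.204 CPM in AXL KO hypoxia and 1.15 ± 0.589 in AXL WT hypoxia, and 3.05 ± 0.109 in AXL KO normoxia and 0.61 ± 0.136 in AXL WT normoxia (n = 3 each). It was higher in AXL KO by 2.22 ± 0.34 (adjusted p = 0.000138) in hypoxia and 2.32 ± 0.35 (adjusted p = 0.000112) in normoxia. Hypoxia raised it by 0.83 ± 0.32 (adjusted p = 0.0411) in AXL KO, a call that ended without any 1 of the 6 AXL KO libraries or any 1 of the 3 AXL WT normoxia libraries (adjusted p = 0.0582 to 0.108). Its AXL KO hypoxia and AXL KO normoxia libraries did not overlap. In AXL WT cells its rise in hypoxia, 0.92 ± 0.35 (adjusted p = 0.0386), ended in 10 of the 12 fits without a library (0.6 without AXL WT hypoxia replicate 3; adjusted p = 0.0521 to 0.169), and held only without AXL WT hypoxia replicate 2 or AXL WT normoxia replicate 1. Col11a2, the other type XI chain tested, was called in normoxia, 3.07 ± 0.58 (adjusted p = 0.000624) for AXL KO against AXL WT, and not in hypoxia (adjusted p = 0.598). In AXL WT hypoxia libraries it ranged widely, at 0.972, 6.37 and 1.72 CPM, and its rise over AXL WT normoxia, 3.11 ± 0.58 (adjusted p = 0.000667), was 1.97 without AXL WT hypoxia replicate 2.

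Col2a1, the cartilage fibril chain, had at most 21 counts in a library. It was lower in AXL KO, at -2.16 ± 0.61 in hypoxia (adjusted p = 0.00872) and -2.15 ± 0.74 in normoxia (adjusted p = 0.0244). The hypoxia call was lost without AXL WT hypoxia replicates 2 and 3 (-1.77, adjusted p = 0.0612). The normoxia call ended without any 1 of AXL KO normoxia replicates 1 and 3 or AXL WT normoxia replicates 1 and 2 (adjusted p = 0.0635 to 0.111), and without AXL KO normoxia replicate 2 the value was -3.63. Col3a1 was lower in AXL KO in hypoxia, -3.25 ± 0.9 (adjusted p = 0.00793), with overlapping groups, and the value was -2.06 without AXL WT hypoxia replicate 2 and -0.41 (adjusted p = 0.73) without replicates 2 and 3. Its rise in AXL WT hypoxia, 2.63 ± 0.82 (adjusted p = 0.0159), ended without AXL WT hypoxia replicate 2 (1.45), AXL WT normoxia replicate 2 or AXL WT normoxia replicate 3 (adjusted p = 0.0501 to 0.107), and turned to -0.21 without AXL WT hypoxia replicates 2 and 3.

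The basement membrane genes split by pair in the same way at both oxygen levels, with 4 of 6 lower and 2 of 6 higher in AXL KO. Of all genes tested, 63% were called in hypoxia and 59.7% in normoxia. Col4a1 had 8.32, 4.52 and 4.49 CPM in AXL KO hypoxia libraries, against 500, 298 and 455 CPM in AXL WT hypoxia libraries. In normoxia, Col4a1 had 3.18, 2.31 and 3.16 CPM in AXL KO libraries, against 176, 186 and 185 CPM in AXL WT libraries. Col4a2 stood at 12.6, 8 and 6.76 CPM in the AXL KO hypoxia libraries and at 652, 310 and 547 CPM in the AXL WT hypoxia libraries. In normoxia Col4a2 stood at 5.32, 4.48 and 5.34 CPM in AXL KO and 306, 316 and 319 CPM in AXL WT libraries. Neither gene's AXL KO libraries came near the AXL WT range. Col4a1 and Col4a2, whose chains make up the network found in nearly all basement membranes, were lower in AXL KO, with log2 fold changes of -6.18 ± 0.3 (adjusted p = 1.11e-08) and -5.79 ± 0.31 (adjusted p = 2.78e-08) in hypoxia, or 72.4-fold and 55.2-fold. In normoxia the values were -5.98 ± 0.3 (adjusted p = 1.31e-08) and -5.95 ± 0.31 (adjusted p = 2.2e-08), or 63.3-fold and 62-fold.

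In hypoxia Col4a1 rose in both genotypes, 1 ± 0.26 (adjusted p = 0.00583) in AXL KO cells and 1.19 ± 0.24 (adjusted p = 0.00105) in AXL WT cells, and the AXL KO value was 0.66 (adjusted p = 0.0286) without AXL KO hypoxia replicate 1, its highest AXL KO library. Its interaction of genotype and oxygen was -0.19 ± 0.35 (adjusted p = 0.721). Col4a2 rose by 0.85 ± 0.27 (adjusted p = 0.0167) in AXL KO hypoxia cells, a call that ended without AXL KO hypoxia replicate 1 (0.56, adjusted p = 0.0952) or AXL KO normoxia replicate 2 (adjusted p = 0.0654). Its rise in AXL WT hypoxia cells, 0.68 ± 0.25 (adjusted p = 0.0344), in which the groups overlapped, ended without any 1 of AXL WT hypoxia replicates 1 (0.45) and 3, AXL KO normoxia replicate 1, or the 3 AXL WT normoxia libraries (adjusted p = 0.0501 to 0.0937).

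Col4a3 and Col4a4, whose chains join that of Col4a5 in the membranes of kidney glomeruli and other specialised sites, were also lower in AXL KO. The hypoxia values of Col4a3 were 0.776, 0.784 and 0.616 CPM in AXL KO libraries and 10.8, 66.6 and 35.3 CPM in AXL WT libraries. For Col4a3 the normoxia values were 0.679, 0.5 and 0.555 CPM in AXL KO libraries and 12.3, 10.2 and 6.32 CPM in AXL WT libraries. Col4a4 had 3.03, 2.22 and 2.62 CPM in AXL KO hypoxia libraries, against 15.5, 37.7 and 20.2 CPM in AXL WT hypoxia libraries. In normoxia, Col4a4 had 0.679, 0.604 and 0.468 CPM in AXL KO libraries, against 7.4, 7.55 and 5.62 CPM in AXL WT libraries. In each AXL KO library both lay below each AXL WT library of the same oxygen level. AXL KO against AXL WT gave -5.69 ± 0.6 (adjusted p = 7.6e-06) for Col4a3 and -3.22 ± 0.31 (adjusted p = 4.09e-06) for Col4a4 in hypoxia, and -4.05 ± 0.57 (adjusted p = 6.56e-05) and -3.55 ± 0.34 (adjusted p = 2.59e-06) in normoxia. Hypoxia raised Col4a4 in AXL KO cells, 2.16 ± 0.33 (adjusted p = 0.000189), and in AXL WT cells, 1.83 ± 0.29 (adjusted p = 0.000223). Col4a3 was not called in AXL KO cells (adjusted p = 0.67). In AXL WT cells it rose by 1.97 ± 0.48 (adjusted p = 0.00407), which was 1.28 without AXL WT hypoxia replicate 2 and 0.18 (adjusted p = 0.552) without replicates 2 and 3.

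The X-linked pair went the other way. Col4a5 stood at 681, 682 and 689 CPM in the AXL KO hypoxia libraries and at 294, 486 and 390 CPM in the AXL WT hypoxia libraries. In normoxia Col4a5 stood at 710, 699 and 870 CPM in AXL KO and 170, 182 and 165 CPM in AXL WT libraries. The hypoxia values of Col4a6 were 372, 362 and 360 CPM in AXL KO libraries and 213, 147 and 141 CPM in AXL WT libraries. For Col4a6 the normoxia values were 393, 410 and 497 CPM in AXL KO libraries and 188, 210 and 169 CPM in AXL WT libraries. The AXL KO libraries lay above the AXL WT libraries for both genes. Col4a5 was higher in AXL KO by 0.81 ± 0.15 (adjusted p = 0.00071) in hypoxia and 2.14 ± 0.16 (adjusted p = 3.71e-07) in normoxia. Col4a6, which shares the bidirectional stretch with it, was higher by 1.12 ± 0.16 (adjusted p = 6.94e-05) and 1.2 ± 0.16 (adjusted p = 3.73e-05). Hypoxia raised Col4a5 in AXL WT cells, 1.18 ± 0.16 (adjusted p = 5.49e-05), and it was not called in AXL KO cells (adjusted p = 0.419). Col4a6 was called in neither genotype (adjusted p = 0.184 in AXL KO, 0.346 in AXL WT). Per length, the type IV RNA with the highest mean was Col4a5 in AXL KO cells (102 CPM per kb in hypoxia, 113 in normoxia) and Col4a2 in AXL WT normoxia cells (47.3). In AXL WT hypoxia libraries Col4a2 had 98.4, 46.8 and 82.6 CPM per kb and Col4a5 43.7, 72.3 and 58.1, so the order of these chains turned round in replicate 2.

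**Figure D3:**
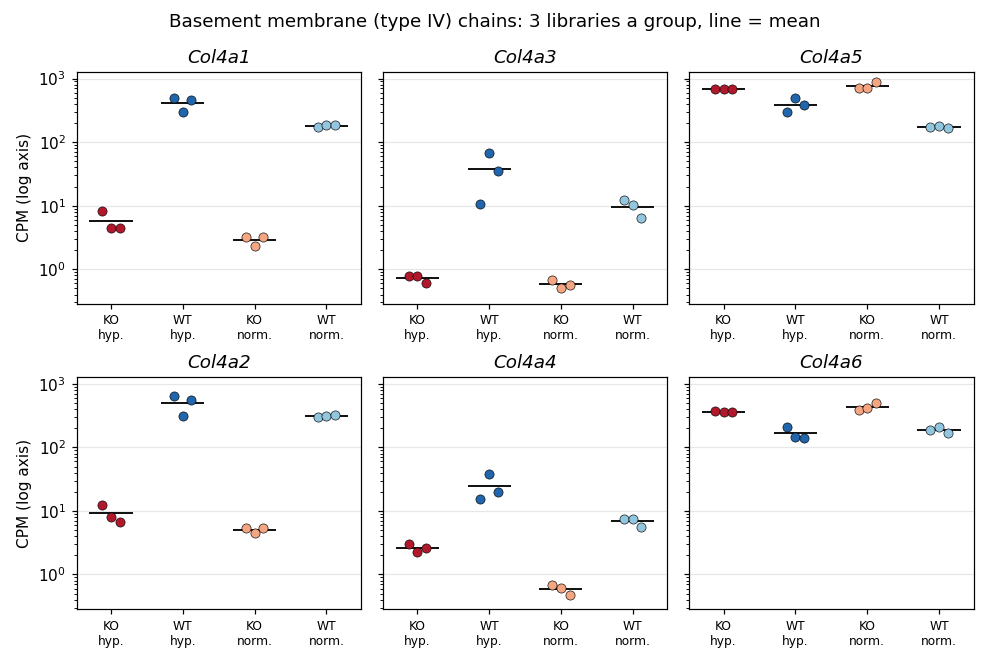
CPM of the 6 type IV genes on a log axis in each library (points, 3 a group) with the group mean (line), each head-to-head pair in a column. Col4a1, Col4a2, Col4a3 and Col4a4 lie lower in AXL KO than in AXL WT libraries of the same oxygen level, and Col4a5 and Col4a6 lie higher.

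Of the 8 FACIT genes tested, 6 were higher, 1 lower and 1 not called in AXL KO against AXL WT in hypoxia, and 5 were higher, 1 lower and 2 not called in normoxia. The shares over all genes were 29.9% higher and 33% lower in hypoxia, and 29.7% and 30% in normoxia. Col12a1 (chr9:79598991-79718831), which coats type I fibrils, changed mainly with oxygen. Col12a1 had 58.5, 59.2 and 55.2 CPM in AXL KO hypoxia libraries, against 33.1, 22 and 20.8 CPM in AXL WT hypoxia libraries. In normoxia, Col12a1 had 3.45, 4.42 and 5.08 CPM in AXL KO libraries, against 4.25, 2.68 and 3.93 CPM in AXL WT libraries. The 6 hypoxia libraries lay above the 6 normoxia libraries. Hypoxia against normoxia gave 3.74 ± 0.24 (adjusted p = 3.34e-07) in AXL KO and 2.8 ± 0.23 (adjusted p = 1.4e-06) in AXL WT cells, or 13.3-fold and 6.99-fold. AXL KO was higher than AXL WT in hypoxia, 1.19 ± 0.21 (adjusted p = 0.000457), and not called in normoxia (adjusted p = 0.342).

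Type IX collagen, a FACIT of cartilage fibrils, is built from the chains of Col9a1, Col9a2 and Col9a3, and these genes were higher in AXL KO and lower in hypoxia in both genotypes. Col9a3 stood at 8.51, 8.64 and 9.77 CPM in the AXL KO hypoxia libraries and at 4.73, 4.59 and 2.97 CPM in the AXL WT hypoxia libraries. In normoxia Col9a3 stood at 13.8, 15.7 and 17.5 CPM in AXL KO and 6.31, 8.04 and 5.36 CPM in AXL WT libraries. Of its 4 groups, AXL KO normoxia was the highest, with no overlap. Col9a3 (chr2:180597790-180622189) was higher in AXL KO by 1.13 ± 0.21 (adjusted p = 0.00055) in hypoxia and 1.25 ± 0.2 (adjusted p = 0.000222) in normoxia, and fell in hypoxia, -0.8 ± 0.2 (adjusted p = 0.00512) in AXL KO and -0.68 ± 0.21 (adjusted p = 0.0135) in AXL WT cells. The AXL WT fall ended without AXL WT normoxia replicate 2 (adjusted p = 0.0903) and without AXL WT hypoxia replicates 2 and 3 (-0.46, adjusted p = 0.0616). Col9a1 averaged 0.758 ± 0.15 CPM in AXL KO hypoxia and 0.156 ± 0.212 in AXL WT hypoxia, and 7.71 ± 0.335 in AXL KO normoxia and 1.29 ± 0.281 in AXL WT normoxia. Its fall in hypoxia was -3.34 ± 0.54 (adjusted p = 0.00028) in AXL KO and -3.04 ± 0.64 (adjusted p = 0.00151) in AXL WT cells. AXL KO against AXL WT gave 2.27 ± 0.66 (adjusted p = 0.0101) in hypoxia and 2.57 ± 0.51 (adjusted p = 0.000988) in normoxia. Its AXL WT hypoxia counts were 18, 3 and 0, and without replicate 1 of that group the hypoxia difference was 4.42 and the AXL WT fall -5.18.

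Col9a2 was higher in AXL KO by 4.16 ± 0.33 (adjusted p = 6.76e-07) in hypoxia and 3.47 ± 0.28 (adjusted p = 6.28e-07) in normoxia, with at most 8 counts in an AXL WT hypoxia library. It fell in hypoxia, -1.16 ± 0.25 (adjusted p = 0.00178) in AXL KO and -1.84 ± 0.34 (adjusted p = 0.000674) in AXL WT cells. Col16a1 had 140, 195 and 169 CPM in AXL KO hypoxia libraries, against 121, 29.1 and 70.2 CPM in AXL WT hypoxia libraries. In normoxia, Col16a1 had 168, 210 and 243 CPM in AXL KO libraries, against 148, 143 and 124 CPM in AXL WT libraries. The AXL WT hypoxia libraries of Col16a1 (chr4:130047840-130099283), a FACIT-like chain found near basement membranes, spanned more than a 4-fold range. It was higher in AXL KO in hypoxia, 1.19 ± 0.37 (adjusted p = 0.0142), and not called in normoxia (adjusted p = 0.189). Without AXL WT hypoxia replicates 2 and 3 the hypoxia value was 0.46 (adjusted p = 0.0861). Its fall in AXL WT hypoxia cells, -0.91 ± 0.37 (adjusted p = 0.0491), ended in 11 of the 12 fits without a library, all but the one without AXL WT hypoxia replicate 1 (-1.47). The value was -0.52 without AXL WT hypoxia replicate 2, and adjusted p in the 11 fits was 0.0588 to 0.127.

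The remaining FACIT genes tested were low. Col20a1 averaged 1.43 ± 0.00161 CPM in AXL KO hypoxia and 0.432 ± 0.0622 in AXL WT hypoxia, and 3.49 ± 0.779 in AXL KO normoxia and 0.203 ± 0.0555 in AXL WT normoxia, and was higher in AXL KO at both oxygen levels, 1.72 ± 0.26 (adjusted p = 0.000126) in hypoxia and 4.09 ± 0.28 (adjusted p = 1.61e-07) in normoxia. In hypoxia it fell in AXL KO cells, -1.28 ± 0.24 (adjusted p = 0.000642), and rose in AXL WT cells, 1.08 ± 0.29 (adjusted p = 0.00675), the rise being 0.89 (adjusted p = 0.114) without AXL WT hypoxia replicates 2 and 3. Col22a1, known from the muscle-tendon junction, was higher in AXL KO normoxia cells, 2.6 ± 0.61 (adjusted p = 0.00302), and in AXL WT cells in hypoxia, 2.57 ± 0.62 (adjusted p = 0.00368), which became 0.38 (adjusted p = 0.612) without replicates 2 and 3 of AXL WT hypoxia.

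Col14a1, a FACIT on type I fibrils, was lower in AXL KO, -3.68 ± 0.73 (adjusted p = 0.000997) in hypoxia, on 7 counts over the AXL KO libraries, and -1.54 ± 0.56 (adjusted p = 0.0331) in normoxia. The normoxia call ended without any 1 of the 6 normoxia libraries (adjusted p = 0.0578 to 0.123). Its fall in AXL KO hypoxia cells, -2.25 ± 0.78 (adjusted p = 0.0267), ended without any 1 of replicates 1 and 3 of AXL KO hypoxia or of AXL KO normoxia (adjusted p = 0.0597 to 0.0933). Col19a1 was not tested. It had 1, 17 and 10 counts in AXL WT hypoxia libraries and 0 in the other 9.

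Type VI collagen is assembled from the chain of Col6a1, the chain of Col6a2 and a further chain, usually that of Col6a3, and these 3 genes were higher in AXL KO. Col6a1 had 749, 728 and 726 CPM in AXL KO hypoxia libraries, against 157, 124 and 165 CPM in AXL WT hypoxia libraries. In normoxia, Col6a1 had 541, 571 and 689 CPM in AXL KO libraries, against 55.4, 56.4 and 54.3 CPM in AXL WT libraries. The AXL KO and AXL WT libraries of Col6a1 (chr10:76708792-76726168) did not overlap, and the difference was 2.31 ± 0.12 (adjusted p = 2.62e-08) in hypoxia and 3.44 ± 0.13 (adjusted p = 1.52e-09) in normoxia. Hypoxia raised Col6a1 in AXL WT cells, 1.42 ± 0.12 (adjusted p = 1.85e-06), and gave 0.29 ± 0.12 (adjusted p = 0.0515) in AXL KO cells, which was not called. Col6a2 stood at 136, 156 and 145 CPM in the AXL KO hypoxia libraries and at 11.7, 15.9 and 22.2 CPM in the AXL WT hypoxia libraries. In normoxia Col6a2 stood at 138, 150 and 176 CPM in AXL KO and 5.37, 6.18 and 5.46 CPM in AXL WT libraries. Col6a2 (chr10:76595762-76623630) was lowest in AXL WT normoxia and showed the same order of groups in AXL WT libraries, hypoxia above normoxia. AXL KO against AXL WT gave 3.13 ± 0.2 (adjusted p = 1.33e-07) in hypoxia and 4.77 ± 0.22 (adjusted p = 6.59e-09) in normoxia, and hypoxia gave 1.55 ± 0.2 (adjusted p = 3.85e-05) in AXL WT cells, with no call in AXL KO cells (adjusted p = 0.713).

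Col6a3 averaged 6.53 ± 0.227 CPM in AXL KO hypoxia and 2.11 ± 1.8 in AXL WT hypoxia, and 5.16 ± 0.354 in AXL KO normoxia and 1.17 ± 0.117 in AXL WT normoxia. It was higher in AXL KO by 1.63 ± 0.43 (adjusted p = 0.00554) in hypoxia, which was 2.61 without AXL WT hypoxia replicate 1, and by 2.14 ± 0.44 (adjusted p = 0.00114) in normoxia. Per length it stood far below its partners, at 0.545 CPM per kb against 168 for Col6a1 and 17.5 for Col6a2 in AXL KO hypoxia. Among the chains that can take the place of Col6a3, Col6a5 had 1, 0 and 0 counts in AXL KO hypoxia libraries against 5, 331 and 156 in AXL WT hypoxia libraries. The summed CPM was 475-fold lower in AXL KO (95% counting interval 84.8 to 18800). In normoxia Col6a5 had 2, 0 and 0 counts in AXL KO against 15, 17 and 13 in AXL WT libraries, a ratio of 23 (6.01 to 196). That normoxia call (adjusted p = 0.0429) ended in 10 of the 12 fits without a library, all but those without AXL WT hypoxia replicate 1 or 2 (adjusted p = 0.0509 to 0.113). The Col6a5 rise in AXL WT hypoxia cells, 3.77 ± 0.98 (adjusted p = 0.00578), rests on replicates 2 and 3 and was -1.25 (adjusted p = 0.157) without them. Col6a4 did not exceed 10 counts in any library.

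Col8a1 (chr16:57624258-57754737), a short-chain collagen of vessel walls and of the membrane under the corneal endothelium, had the highest mean per length of the collagen RNAs in AXL WT hypoxia cells. In replicate 1 of that group Col4a2 lay above it. The hypoxia values of Col8a1 were 272, 274 and 274 CPM in AXL KO libraries and 757, 720 and 707 CPM in AXL WT libraries. For Col8a1 the normoxia values were 306, 343 and 422 CPM in AXL KO libraries and 183, 188 and 193 CPM in AXL WT libraries. AXL WT hypoxia libraries were the highest and AXL WT normoxia libraries the lowest, with the AXL KO libraries between them. Col8a1 was lower in AXL KO in hypoxia, -1.41 ± 0.11 (adjusted p = 5.43e-07), and higher in normoxia, 0.92 ± 0.11 (adjusted p = 1.36e-05), the only tested collagen gene called in opposite directions. Hypoxia raised it by 1.95 ± 0.11 (adjusted p = 1.12e-07) in AXL WT cells and lowered it in AXL KO cells, -0.38 ± 0.11 (adjusted p = 0.0083), where the value was -0.24 (adjusted p = 0.0402) without AXL KO normoxia replicate 3. Col10a1, the collagen of hypertrophic cartilage, had 39, 34 and 44 counts in AXL KO hypoxia against 1, 1 and 0 in AXL WT hypoxia libraries, a ratio of 60.6 (95% counting interval 16.4 to 506). In normoxia it had 2, 6 and 3 counts in AXL KO libraries and 1, 0 and 1 in AXL WT libraries, a ratio of 5.38 (1.17 to 49.9). The normoxia call (adjusted p = 0.0268) ended without AXL KO normoxia replicate 2 or AXL WT normoxia replicate 2 (adjusted p = 0.0847 to 0.15). Its rise in AXL KO hypoxia cells was 3.75 ± 0.45 (adjusted p = 3.3e-05).

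Col7a1 stood at 55.9, 51.3 and 49.8 CPM in the AXL KO hypoxia libraries and at 119, 34.7 and 57.3 CPM in the AXL WT hypoxia libraries. In normoxia Col7a1 stood at 17.1, 18.9 and 21.2 CPM in AXL KO and 71.3, 50.7 and 50.4 CPM in AXL WT libraries. Col7a1 (chr9:108953586-108984875), which forms the anchoring fibrils that tie basement membrane to the stroma beneath, was lower in AXL KO in normoxia, -1.59 ± 0.34 (adjusted p = 0.00163), and not called in hypoxia, where the groups overlapped (adjusted p = 0.281). It rose in hypoxia in AXL KO cells, 1.45 ± 0.34 (adjusted p = 0.00325), and was not called in AXL WT cells (adjusted p = 0.47). Col17a1 had 3.18, 2.84 and 2.71 CPM in AXL KO hypoxia libraries, against 27.8, 7.8 and 14.7 CPM in AXL WT hypoxia libraries. In normoxia, Col17a1 had 0.0536, 0.241 and 0.121 CPM in AXL KO libraries, against 7.28, 6.79 and 7.63 CPM in AXL WT libraries. Col17a1 (chr19:47646344-47692094), a transmembrane collagen of the hemidesmosomes that hold epithelium to its basement membrane, was lower in each AXL KO library than in any AXL WT library. The difference was -2.53 ± 0.41 (adjusted p = 0.000209) in hypoxia and -5.67 ± 0.53 (adjusted p = 2.23e-06) in normoxia, on 3, 14 and 7 counts in AXL KO normoxia. In hypoxia Col17a1 rose in AXL KO cells, 4.36 ± 0.52 (adjusted p = 3.13e-05). Its rise in AXL WT cells, 1.21 ± 0.38 (adjusted p = 0.0167), was 0.64 (adjusted p = 0.0408) without AXL WT hypoxia replicate 1 and was not called without AXL WT normoxia replicate 2 (adjusted p = 0.0508).

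The multiplexins carry a cleavable end fragment, which in Col18a1 is endostatin, and lie in basement membrane zones. Col18a1 had 534, 535 and 532 CPM in AXL KO hypoxia libraries, against 623, 368 and 319 CPM in AXL WT hypoxia libraries. In normoxia, Col18a1 had 641, 640 and 696 CPM in AXL KO libraries, against 773, 831 and 771 CPM in AXL WT libraries. Col18a1 (chr10:77052178-77166548) was, by group mean, among the 3 leading collagen RNAs per length in each group. It was not called between genotypes, at 0.29 ± 0.19 (adjusted p = 0.202) in hypoxia and -0.26 ± 0.19 (adjusted p = 0.25) in normoxia. The hypoxia value turned to -0.23 (adjusted p = 0.0286) without AXL WT hypoxia replicates 2 and 3. Col18a1 fell in hypoxia in AXL WT cells, -0.86 ± 0.19 (adjusted p = 0.00224). In AXL KO cells the change was -0.31 ± 0.19 (adjusted p = 0.189), not called although the groups did not overlap. The interaction of genotype and oxygen, 0.55 ± 0.27 (adjusted p = 0.145), was not called. Col15a1 had 0, 2 and 0 counts in AXL KO hypoxia libraries and 14, 3 and 2 in AXL WT hypoxia libraries, and 1, 2 and 7 in AXL KO normoxia against 46, 47 and 30 in AXL WT normoxia libraries. It was lower in AXL KO in normoxia, -3.61 ± 0.73 (adjusted p = 0.00113). In hypoxia the ratio was 9.17 (95% counting interval 2.21 to 81.2), with overlapping groups, and that call ended without AXL KO hypoxia replicate 1 or 3 or AXL WT hypoxia replicate 1 (adjusted p = 0.107 to 0.228). The fitted hypoxia difference was -3.01, -5.87 without AXL KO hypoxia replicate 2 and -1.7 without AXL WT hypoxia replicate 1. Its fall in AXL WT hypoxia cells, -2.37 ± 0.67 (adjusted p = 0.0093), was -3.68 without AXL WT hypoxia replicate 1 and -1.23 (adjusted p = 0.0637) without replicates 2 and 3.

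Set by oxygen, hypoxia raised 11 and lowered 7 of the 34 tested collagen genes in AXL KO cells, with 16 not called, where 58% of all genes were called (27.3% higher, 30.6% lower). In AXL WT cells it raised 19 and lowered 7, with 8 not called, where 59.8% of all genes were called (29.2% higher, 30.7% lower). The share called in AXL KO cells, 52.9%, lay near that of all genes, and that in AXL WT cells was 76.5%. The median log2 fold change was 0.29 in AXL KO and 1.13 in AXL WT cells, against -0.03 and -0.02 over all genes. With AXL WT hypoxia replicates 2 and 3 left out, 16 rose and 4 fell in AXL WT cells, and 15 rose and 9 fell in AXL KO cells. A total of 8 genes were called higher in hypoxia in both genotypes (Col1a1, Col4a1, Col4a2, Col4a4, Col5a3, Col12a1, Col17a1 and Col27a1), which is 8 of the 11 higher in AXL KO and 8 of the 19 higher in AXL WT cells, and the 3 type IX genes were called lower in both. Col2a1, Col4a6 and Col6a3 were called in neither. These 2 comparisons share no library. The share of all genes called alike in both genotypes was not worked out, so nothing about collagen genes is read from these shared calls.

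**Figure D4:**
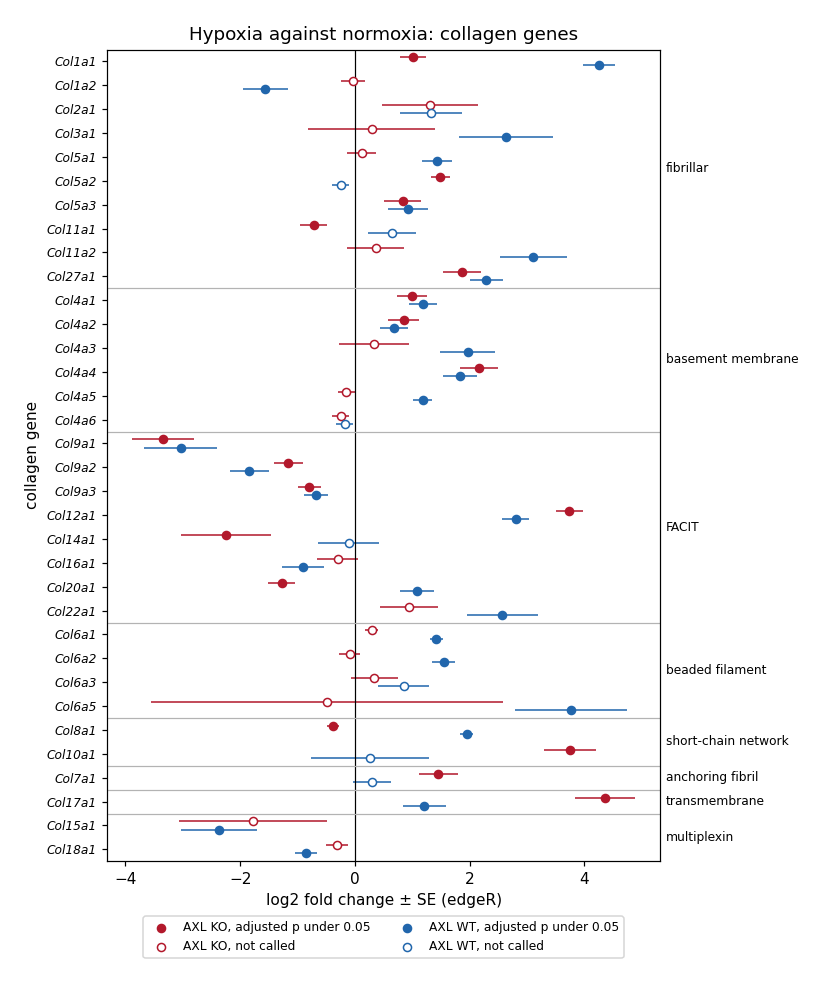
Log2 fold change of hypoxia against normoxia for the 34 tested collagen genes, by type, in AXL KO and in AXL WT cells, with standard errors and open circles for genes not called. Col12a1 lies right of 2 in both genotypes, Col9a1 lies left of -3 in both, and Col8a1 and Col20a1 lie on opposite sides of 0.

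The counts by type stand beside 27.3% of all genes raised and 30.6% lowered by hypoxia in AXL KO cells, and 29.2% and 30.7% in AXL WT cells. With so few genes a type, nothing about a type is read from them. By type, hypoxia raised 4 and lowered 1 of the 10 fibrillar genes in AXL KO cells, and raised 6 and lowered 1 in AXL WT cells. Of the 6 basement membrane genes it raised 3 in AXL KO and 5 in AXL WT cells and lowered none in either, with Col4a6 the gene not called in AXL WT cells. Of the 8 FACIT genes it raised 1 and lowered 5 in AXL KO cells, and raised 3 and lowered 4 in AXL WT cells. Of the 4 beaded filament genes none was called in AXL KO cells, where the smallest adjusted p was that of Col6a1 (0.0515), and 3 rose in AXL WT cells.

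The difference between the genotypes in their response to hypoxia was tested as an interaction of genotype and oxygen. It was called in 12 of the 34 genes, 4 with a higher and 8 with a lower value, against 28.8% of all genes (13.5% higher, 15.3% lower). Negative values mean that hypoxia raised the gene less, or lowered it more, in AXL KO than in AXL WT cells. Among fibrillar genes these were Col1a1 (-3.24 ± 0.35), Col5a1 (-1.31 ± 0.36) and Col11a2 (-2.76 ± 0.76). The others were Col4a5 (-1.33 ± 0.22), Col6a1 (-1.13 ± 0.17), Col6a2 (-1.64 ± 0.27), Col20a1 (-2.37 ± 0.37) and Col8a1 (-2.34 ± 0.15). Positive values were those of Col5a2 (1.73 ± 0.22), Col1a2 (1.53 ± 0.45), Col12a1 (0.93 ± 0.31) and Col17a1 (3.14 ± 0.65). The smallest adjusted p was that of Col8a1 (3.17e-06) and the largest that of Col12a1 (0.0388). Col11a1, at -1.37 ± 0.48 (adjusted p = 0.0525), was not called.

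The count depended on AXL WT hypoxia replicate 1, without which 20 genes were called, 7 higher and 13 lower. The Col12a1 interaction ended in 9 of the 12 fits without a library (adjusted p = 0.0611 to 0.141), all but those without AXL WT hypoxia replicate 1, AXL KO normoxia replicate 3 or AXL WT normoxia replicate 2. That of Col1a2 ended without any 1 of AXL KO hypoxia replicate 2, AXL KO normoxia replicates 1 and 2 or the 3 AXL WT normoxia libraries (adjusted p = 0.0502 to 0.0752). Without AXL WT hypoxia replicates 2 and 3 the value of Col12a1 was 0.54 (adjusted p = 0.0993) and that of Col1a2 1.06 (adjusted p = 0.215). The Col5a1 value was -0.87 without AXL WT hypoxia replicate 1, and the Col11a2 value -1.6 without AXL WT hypoxia replicate 2.

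Ratios of partner chains within a library do not depend on how libraries are scaled. The RNA ratio of Col5a1 to Col5a2, per length, was 132, 95 and 101 in AXL KO hypoxia and 3.35, 1.75 and 2.21 in AXL WT hypoxia libraries. In normoxia it was 296, 240 and 293 in AXL KO and 0.789, 0.811 and 0.766 in AXL WT libraries. No 2 groups overlapped. With 3 libraries against 3 the exact permutation test (two-sided) cannot give a p below 0.1, and it gave 0.1 for each of the 4 comparisons of this ratio (0.138 adjusted over the 22 ratio comparisons computed). The log2 difference of AXL KO and AXL WT was 5.53 in hypoxia and 8.45 in normoxia.

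For Col4a1 to Col4a2, whose RNAs were both far lower in AXL KO, the ratio stayed between 0.457 and 0.854 in the 12 libraries. It was 0.585, 0.502 and 0.589 in AXL KO hypoxia and 0.68, 0.854 and 0.738 in AXL WT hypoxia libraries. In normoxia it was 0.53, 0.457 and 0.524 for AXL KO and 0.512, 0.522 and 0.516 for AXL WT libraries. The log2 difference of AXL KO and AXL WT was -0.44 in hypoxia (exact permutation p = 0.1) and -0.04 in normoxia (exact permutation p = 1). The ratio of Col4a5 to Col4a6, chosen after its values were seen, was 2.17, 2.24 and 2.27 in AXL KO hypoxia and 1.63, 3.92 and 3.28 in AXL WT hypoxia libraries. Normoxia gave 2.14, 2.02 and 2.08 for AXL KO and 1.07, 1.03 and 1.16 for AXL WT libraries. By total exon length, the RNAs of both chains were thus near 1 to 1 in AXL WT normoxia, and that of Col4a5 had the higher level in the other groups. For Col4a3 to Col4a4, also chosen after its values were seen, it was 0.273, 0.376 and 0.251 in AXL KO hypoxia against 0.744, 1.88 and 1.86 in AXL WT hypoxia libraries (log2 difference -2.22, exact permutation p = 0.1). In normoxia the groups overlapped, at 1.06, 0.882 and 1.26 for AXL KO and 1.76, 1.44 and 1.2 for AXL WT libraries (-0.45, exact permutation p = 0.2).

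For Col6a1 to Col6a2 the ratio was 10.4, 8.89 and 9.51 in AXL KO hypoxia and 25.5, 14.8 and 14.1 in AXL WT hypoxia libraries, while normoxia gave 7.43, 7.24 and 7.46 for AXL KO and 19.6, 17.4 and 18.9 for AXL WT libraries. AXL KO lay below AXL WT in both, with log2 differences of -0.87 and -1.33 (exact permutation p = 0.1 each). For Col1a1 to Col1a2 it was 4.32, 4.1 and 4.23 for AXL KO libraries in hypoxia. These chains join 2 to 1 in the type I helix, but the ratio rests on total exon lengths of 6563 and 12426 bases and cannot be set against that. In plain counts AXL KO hypoxia libraries had 1623, 1889 and 1827 of Col1a1 and 712, 872 and 818 of Col1a2. In normoxia the per-length ratio was 2.23, 2.4 and 1.68 for AXL KO and 6.51, 5.27 and 4.94 for AXL WT libraries, on 14 to 18 counts of Col1a2 in that last group. No ratio is given for AXL WT hypoxia, where Col1a2 had under 10 counts in each library.

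**Figure D5:**
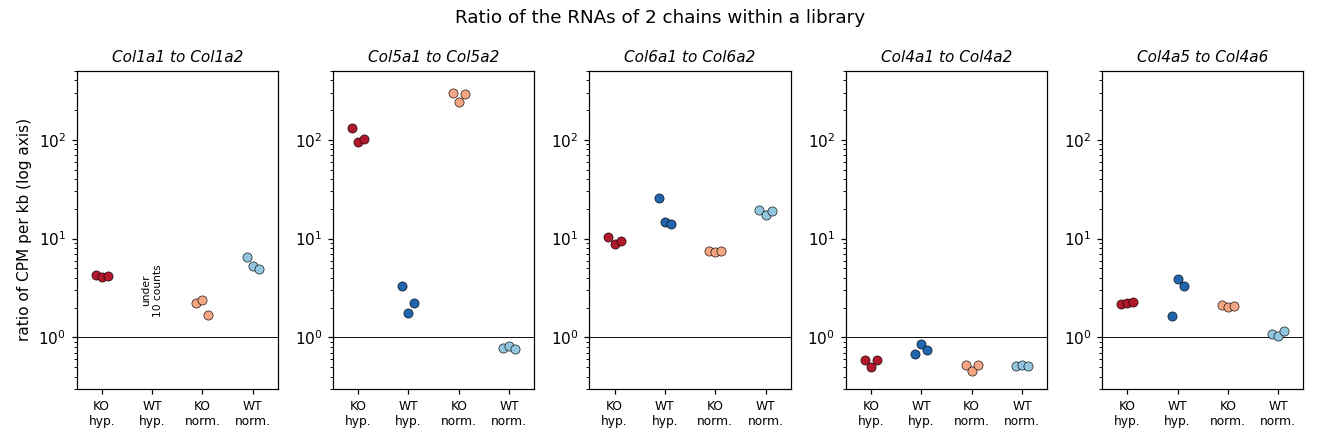
Ratio of CPM per kb of 2 chains within each library (points, log axis) for 5 pairs in AXL KO hypoxia, AXL WT hypoxia, AXL KO normoxia and AXL WT normoxia. Col5a1 to Col5a2 runs between 95 and 296 in AXL KO and between 0.766 and 3.35 in AXL WT libraries, while Col4a1 to Col4a2 stays between 0.457 and 0.854 in the 12 libraries.

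The enzymes that fold, hydroxylate and crosslink collagen chains were mostly higher in AXL KO, with 18 of 23 tested genes higher and 3 lower at each oxygen level and median log2 fold changes of 1.26 in hypoxia and 1.63 in normoxia (-0.04 and -0.03 over all genes). Of all genes tested, 63% were called in hypoxia and 59.7% in normoxia, and for the response to hypoxia 58% in AXL KO and 59.8% in AXL WT cells. They include the crosslinking oxidase Lox (163672 counts summed over AXL KO hypoxia libraries against 10 over AXL WT hypoxia libraries, and 67832 against 42 in normoxia) and the lysyl hydroxylase Plod2 (241520 against 68 counts in hypoxia). The prolyl hydroxylase P3h3 averaged 18.4 CPM in AXL KO and 0.119 in AXL WT hypoxia cells, and 19.4 and 0.107 in normoxia. Hypoxia raised 12 of the 23 in AXL KO and 14 in AXL WT cells and lowered 4 and 5. The prolyl hydroxylase subunit P4ha2 averaged 971 CPM in AXL KO hypoxia against 136 in AXL KO normoxia, and 406 in AXL WT hypoxia against 18.5 in AXL WT normoxia.

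Of 12 tested genes for procollagen export and propeptide removal, 7 were higher and 1 lower in AXL KO in hypoxia, and 8 higher and 2 lower in normoxia (median log2 fold changes 0.9 and 0.75). Over all genes 29.9% were higher and 33% lower in hypoxia, and 29.7% and 30% in normoxia. Adamts2, the protease that trims the amino end of fibrillar procollagen, had 3023 counts over AXL KO hypoxia libraries and 1 over AXL WT hypoxia libraries, and 2302 and 3 in normoxia. Pcolce, which enhances trimming of the other end, averaged 117 CPM in AXL KO against 4.47 in AXL WT hypoxia cells (log2 fold change 4.71 ± 0.38, adjusted p = 8.71e-07). In AXL KO cells hypoxia raised 2 and lowered 4 of the 12, and in AXL WT cells it raised 4 and lowered 6. It changed 58% of all genes in AXL KO and 59.8% in AXL WT cells. Pcolce2 rose in AXL KO hypoxia cells (1.95 ± 0.15, adjusted p = 1.38e-06) and fell in AXL WT hypoxia cells (-0.79 ± 0.15, adjusted p = 0.000662).

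Receptors and uptake proteins of collagen were mixed, with 2 of 10 tested genes higher and 5 lower in AXL KO in hypoxia, and 5 higher and 3 lower in normoxia (medians -1 and 0.63). In hypoxia the 7 called of 10 lie near the 63% called over all genes, and nothing about the list is read from that count; in normoxia 8 of 10 stand beside 59.7%. The collagen-binding integrin chain Itga2 averaged 5.1 CPM in AXL KO and 20.2 in AXL WT hypoxia cells (-1.98 ± 0.14, adjusted p = 2.68e-07), and Itga1 11.2 in AXL KO and 0.665 in AXL WT normoxia cells (4.07 ± 0.24, adjusted p = 5.63e-08). The fibrillar collagen receptor kinase Ddr2 averaged 1.31 CPM in AXL KO and 49.2 in AXL WT normoxia cells (-5.23 ± 0.48, adjusted p = 1.89e-06). Hypoxia raised 2 and lowered 4 of the 10 in AXL KO cells, and raised 6 and lowered 1 in AXL WT cells, beside 58% and 59.8% of all genes called. Itga2 fell in hypoxia in AXL KO cells (-0.62 ± 0.14, adjusted p = 0.00209) and rose in AXL WT cells (2.31 ± 0.14, adjusted p = 1.98e-07).

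Of 8 tested collagen-degrading enzymes, 4 were higher and 3 lower in AXL KO in hypoxia, and 3 were higher and none lower in normoxia, where 5 were not called (medians 0.69 and 0.58). The 7 called of 8 in hypoxia stand beside 63% of all genes, and the 3 of 8 in normoxia are a smaller share than the 59.7% of all genes. The membrane-bound matrix protease Mmp14 had 20324 counts over AXL KO hypoxia libraries and 0 over AXL WT hypoxia libraries, and 33843 and 6 in normoxia. The collagenase Mmp13 averaged 0.0379 CPM in AXL KO hypoxia and 3.6 in AXL KO normoxia (-6.47 ± 0.94, adjusted p = 0.000125), against 15.9 in AXL WT hypoxia and 2.07 in AXL WT normoxia (2.94 ± 0.6, adjusted p = 0.00125). Of 11 tested fibril-associated proteins, 8 were higher and 2 lower in AXL KO in hypoxia, and 9 higher and 1 lower in normoxia (medians 2.09 and 4.25), against 29.9% higher and 33% lower of all genes in hypoxia and 29.7% and 30% in normoxia. Sparc, a collagen-binding protein, averaged 2360 CPM in AXL KO and 409 in AXL WT hypoxia cells (2.53 ± 0.19, adjusted p = 3.99e-07). Tnxb, a tenascin of collagen networks, averaged 24.3 CPM in AXL KO and 169 in AXL WT hypoxia cells (-2.8 ± 0.18, adjusted p = 1.1e-07).

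Markers of other cell types were read beside these results. The summed level of 10 fibroblast markers other than collagens was 283 to 354 CPM in AXL KO hypoxia, 414 to 849 in AXL WT hypoxia, 331 to 408 in AXL KO normoxia and 336 to 383 in AXL WT normoxia, and was mostly Gsn, which is not confined to fibroblasts. Dpt was at 0 in both AXL KO groups, Lum in AXL KO normoxia, Thy1 in both AXL WT groups and Fap in AXL WT hypoxia, and none of these 4 averaged above 0.0592 CPM in any group. Of the 6 that could be tested, 2 were higher and 3 lower in AXL KO in hypoxia, and 3 higher and 1 lower in normoxia. Over all genes 29.9% were higher and 33% lower in hypoxia, and 29.7% and 30% in normoxia. Dcn, which is also in the list of fibril-associated proteins, was higher in AXL KO at both oxygen levels, at 3.12 CPM in AXL KO and 0.732 in AXL WT hypoxia cells (2.09 ± 0.29, adjusted p = 6.79e-05), and 11.7 in AXL KO and 0.299 in AXL WT normoxia cells (5.28 ± 0.32, adjusted p = 7.32e-08). Clec3b was also higher at both (1.61 ± 0.33 in hypoxia, adjusted p = 0.00106, and 3.19 ± 0.37 in normoxia, adjusted p = 1.41e-05), at 0.296 CPM or less in each group mean. Pdgfra averaged 9.38 CPM in AXL KO and 56.4 in AXL WT hypoxia cells, and 38.3 in AXL KO and 51.5 in AXL WT normoxia cells. Pdgfrb averaged 9.27 CPM in AXL KO and 13.9 in AXL WT hypoxia cells, and 122 in AXL KO and 15.6 in AXL WT normoxia cells. The 6 pericyte and smooth muscle markers summed to at most 5.27 CPM in any library, with Acta2 at 0 in AXL WT hypoxia and in both normoxia groups. The 6 endothelial markers summed to 16.1 to 17.9 CPM in AXL KO hypoxia, 0.905 to 2.72 in AXL WT hypoxia, 3.28 to 4.68 in AXL KO normoxia and 0.391 to 0.758 in AXL WT normoxia, nearly all of it Kdr in AXL KO cells. The 7 leukocyte markers summed to 49 to 55.4 CPM in AXL KO hypoxia, 6.46 to 9.58 in AXL WT hypoxia, 59.5 to 85.2 in AXL KO normoxia and 11 to 12.6 in AXL WT normoxia, mostly Cd68, while Ptprc averaged at most 0.0663 CPM. The 4 adipocyte markers summed to 4.55 to 4.61 CPM in AXL KO hypoxia, 8.53 to 27.9 in AXL WT hypoxia, 8.65 to 13.6 in AXL KO normoxia and 33.8 to 41.8 in AXL WT normoxia, nearly all of it Fabp4, with Lep at 0 throughout. The 9 mammary epithelial markers summed to 2430 to 2520 CPM in AXL KO hypoxia, 1080 to 4710 in AXL WT hypoxia, 2250 to 2540 in AXL KO normoxia and 3230 to 3330 in AXL WT normoxia, mostly the luminal keratins Krt8 and Krt18 and the driver Erbb2, with Krt19 at 0 in both normoxia groups. Of the 8 epithelial markers tested, 2 were higher and 3 lower in AXL KO in hypoxia, and 1 higher and 3 lower in normoxia. Of all genes, 63% were called in hypoxia and 59.7% in normoxia, and nothing about these markers is read from their counts. Epcam averaged 9.31 CPM in AXL KO and 64.1 in AXL WT hypoxia cells, and 7.1 in AXL KO and 22.1 in AXL WT normoxia cells. Cldn4 (22.9 CPM in AXL KO and 131 in AXL WT), Cdh1 (4.47 and 30.3) and Erbb2 (664 and 966) also had the lower mean in AXL KO hypoxia cells. So did Krt19, at 0.151 CPM or less. Other members had the higher mean in AXL KO hypoxia cells, with Cldn3 at 125 CPM in AXL KO and 42.1 in AXL WT, Krt18 at 1010 in AXL KO and 638 in AXL WT, Krt8 at 644 in AXL KO and 523 in AXL WT, and Cldn7 at 1.5 in AXL KO and 0.642 in AXL WT. The part of any of these in the collagen differences was not tested.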

How the data were processed

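RNA from 12 libraries of MMTV-NIC cells was measured by sequencing of total RNA. The deposited values are raw counts of read pairs per gene, made by the authors with featureCounts 1.6.0 on STAR alignments to GRCm38 with Ensembl 93 genes and strand setting 2, per the file headers. The submitters' processing notes name FastQC 0.11.5, STAR 2.5.1b, featureCounts 1.4.6 and DESeq2 1.12.3. Stranded counting separates overlapping genes on opposite strands, such as Col4a1 and Col4a2.

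Depth is 45297267 to 58775422 counts a library. Symbols and gene types came from GENCODE M21. Of 54232 genes, 16767 passed edgeR's filterByExpr, and 37465 were left out. The 4 groups of 3 were fitted together (R 4.3.3, edgeR 4.0.16, TMM factors, quasi-likelihood test with Benjamini-Hochberg adjustment over all genes tested, called at adjusted p under 0.05). This left 8 residual degrees of freedom. Standard errors are the size of the log2 fold change divided by the square root of the F statistic, an approximation. The script was tested on simulated data. Collagen genes that passed the filter and reached 10 CPM on average in a group are described library by library. Members of other lists were named by smallest p, at most 3 per list and comparison. Members and lists were chosen with earlier results of these data known. Intervals cover counting error only.

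Alternatives were RLE factors, library size alone, no filter, a filter of 5 CPM in 3 libraries, DESeq2 1.42.0, voom with group weights (limma 3.58.1), a minimum fold of 2, a replicate block, a fit of only the libraries compared, and leaving out libraries. Chain ratios were compared by exact permutation tests, 2 of the 6 chosen after their values were seen.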

Additional observations from a re-analysis of the deposited data

Results flagged for a closer look

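The response to hypoxia differed between AXL KO and AXL WT cells, by a test of the difference itself (the interaction of genotype and oxygen, edgeR's quasi-likelihood test with Benjamini-Hochberg adjustment), in 12 of the 34 tested collagen genes, against 28.8% of all genes tested, a share near it. Of the 8 negative values, 5 belong to genes that were higher in AXL KO than in AXL WT cells at both oxygen levels, that hypoxia raised in AXL WT cells, and that were not called lower in hypoxia in AXL KO cells. These were Col1a1 (-3.24, adjusted p = 6.79e-05), Col5a1 (-1.31, adjusted p = 0.0178), Col4a5 (-1.33, adjusted p = 0.00105), Col6a1 (-1.13, adjusted p = 0.000534) and Col6a2 (-1.64, adjusted p = 0.00104). Col11a2 gave -2.76 (adjusted p = 0.0181).

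Col8a1 (-2.34, adjusted p = 3.17e-06) and Col20a1 (-2.37, adjusted p = 0.000826) fell in hypoxia in AXL KO cells and rose in AXL WT cells. The positive values were Col17a1 at 3.14 (adjusted p = 0.00441), Col5a2 at 1.73 (adjusted p = 0.000225), Col1a2 at 1.53 (adjusted p = 0.0235) and Col12a1 at 0.93 (adjusted p = 0.0388). The spread of the AXL WT hypoxia libraries, with a biological coefficient of variation of 0.402, enters each of these values, and its part in them was not tested.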

How the results depend on the processing

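Of 116 called values of collagen genes, 99 kept their call in all 12 fits without a library. With 1 library left out, 30 to 32 genes (17 to 18 higher, 13 to 15 lower) were called for AXL KO against AXL WT in hypoxia and 26 to 33 (17 to 19, 9 to 14) in normoxia. Hypoxia against normoxia gave 14 to 23 (9 to 14, 5 to 9) in AXL KO and 22 to 30 (17 to 21, 5 to 9) in AXL WT cells, and the interaction 10 to 20 (2 to 7, 8 to 13). Under the strict filter (23 collagen genes tested, so fewer could be called) 8 were lower in AXL KO in hypoxia, 4 fell in AXL KO hypoxia cells, and 17 were called and 4 fell in AXL WT hypoxia cells. Against a minimum fold of 2, 9 were higher in AXL KO in hypoxia. Hypoxia then moved 7 genes in AXL KO cells (6 higher, 1 lower) and 13 in AXL WT cells (11 higher, 2 lower), and the interaction was called in 5 (2 higher, 3 lower). Voom left 3 falling in AXL WT hypoxia cells, and leaving out AXL WT hypoxia replicates 2 and 3 left 4. Without those 2 libraries, Col18a1 in AXL KO against AXL WT in hypoxia turned to -0.23, and in AXL WT cells the hypoxia changes of Col3a1 and Col6a5 turned to -0.21 and -1.25. The cause was not tested.

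Under voom 11 of the 116 values lost their call. These were Col2a1, Col15a1 and Col20a1 for AXL KO against AXL WT in hypoxia, Col1a2, Col3a1, Col5a3, Col9a2, Col9a3, Col15a1 and Col20a1 for hypoxia in AXL WT cells, and the Col1a2 interaction. With the compared libraries alone Col9a1 and Col16a1 lost theirs in hypoxia, and Col5a3, Col9a3 and Col16a1 in AXL WT cells. All 5 belong to comparisons that include AXL WT hypoxia, and none to hypoxia against normoxia in AXL KO cells. The fits of compared libraries kept 92 calls and could not test every value. For AXL KO against AXL WT in hypoxia they called 25 of 31 tested collagen genes. Without a filter 8 values were lost, and with library size alone, which moved the median of all genes to between -0.32 and 0.06 on the log2 scale, 5. DESeq2 and RLE factors each lost 1 and kept 115. The strict filter lost 1 and kept 81, and the other values belong to genes it did not test. More were lost against a minimum fold of 2 (49) and without AXL WT hypoxia replicates 2 and 3 (12, with 2 more reversed).

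Same-numbered replicates deviated together little or not at all (correlations -0.065 to 0.122). Such correlations over 3 libraries a group cannot tell whether same-numbered libraries were prepared together, and the labels do not say. With a replicate block 29, 30, 17, 25 and 12 collagen genes were called in the 5 comparisons, in the order used above, and 5 values lost their call.

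The log2 difference of the Col4a1 to Col4a2 ratio between AXL KO and AXL WT normoxia was -0.08 to 0.03 without 1 library, changing sign without AXL KO normoxia replicate 2. In AXL WT cells that of Col6a1 to Col6a2 with hypoxia was -0.37 to 0.06 (0.03 and 0.06 without AXL WT hypoxia replicates 2 and 3), and that of Col4a3 to Col4a4 -0.3 to 0.37 (0.37 without AXL WT hypoxia replicate 1, 0.07 without AXL WT normoxia replicate 1). Depth limits what can be said of genes that rest on few counts in at least 1 group. Among them are Col1a2, Col2a1, Col3a1, Col6a5, Col9a1, Col9a2, Col10a1, Col14a1, Col15a1, Col17a1 and Col22a1.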
